A study of Homo sapiens with 6 samples.

Results

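The transcripts described here are 10 long noncoding RNAs of LX-2 cells, an established human hepatic stellate cell line: FER1L4, MIR210HG, NEAT1, MALAT1, MEG3, H19, MIR31HG, HAS2-AS1, GAS5 and SNHG1. They were taken by gene symbol from a table of 60748 genes, as transcripts that are abundant or known to respond to stress. FER1L4 was chosen by its measured fold change between the groups, one of the lowest in LX-2FAP, and HAS2-AS1 because it lies beside HAS2, a gene known to be higher in LX-2FAP. For FER1L4 and HAS2-AS1 the values are therefore given as a description, without a test, and the abundance of all 10 is likewise a description. In these bulk cultures, fewer expressing cells and less RNA per cell cannot be told apart.

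RNA was sequenced from LX-2 cells infected with the empty lentiviral vector (LX-2Vector, n = 3) and from LX-2 cells made to overexpress FAP, the membrane protease fibroblast activation protein α, with the same vector (LX-2FAP, n = 3). In the vector of both groups a ubiquitin promoter stands before the cloning site and an SV40 element before EGFP and puromycin resistance, stable clones were selected with puromycin, and every culture was kept for 24 h. How many clones made up a group, and whether its libraries came from separate cultures, were not given in the sources used here, so the p-values measure only the spread between these libraries. Total counts ran from 17355700 to 26352060 per library. FAP had 42 to 55 counts in the LX-2Vector libraries and 14805 to 15160 counts in the LX-2FAP libraries, which matched the labels. Of 16 stellate cell markers, VIM and COL1A1 were among those detected, LRAT was at 0 in every library and DES stayed under 10 counts. Of 10 hepatocyte markers 7, ALB and APOA1 among them, also stayed under 10 counts in every library. So did 3 of 7 cholangiocyte and epithelial markers, EPCAM and CDH1 among them. The 7 together had 1247 to 1902 counts per library, so epithelial markers were not absent.

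Long noncoding RNAs act as transcripts and are not translated into a conserved protein. MALAT1 and NEAT1 stay in the nucleus, where MALAT1 gathers in splicing-factor speckles and the long form of NEAT1 builds paraspeckles. GAS5 and SNHG1 carry small nucleolar RNAs (snoRNAs) in their introns, MIR210HG, MIR31HG and H19 carry microRNA precursors, and MEG3 and H19 are expressed from imprinted gene clusters. MIR210HG and its microRNA are known targets of the hypoxia-inducible transcription factors.

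The microRNAs of 3 host transcripts are shown with their seeds, bases 2 to 8, in capitals, because the host is often read as a stand-in for the microRNA. They were taken from RefSeq on GRCh38.p14, where hsa-miR-210-3p is at chr11:568112-568133, hsa-miR-31-5p at chr9:21512158-21512178 and hsa-miR-675-5p, within H19, at chr11:1996800-1996822, all on the minus strand. The 3 seeds differ from each other.
hsa-miR-210-3p: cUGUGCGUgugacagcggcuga
hsa-miR-31-5p: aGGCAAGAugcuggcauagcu
hsa-miR-675-5p: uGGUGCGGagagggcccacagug

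These libraries measured the hosts and hardly the microRNAs. The gene of the miR-210 precursor had 7 counts over the 6 libraries, that of the miR-31 precursor had 3, and that of the miR-675 precursor was listed at 0. The 7 snoRNA genes listed within SNHG1 were all at 0 in every library.

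The 3′ ends of MALAT1 and NEAT1 are shown because MALAT1 and the long form of NEAT1 have no ordinary poly(A) tail, whereas the short form of NEAT1 is polyadenylated. At both ends, a pair of U-rich stretches folds with a genome-encoded A-rich tract into a triple helix that protects the end. The sequences are from the GENCODE release 29 transcripts MALAT1-202 (8708 bases) and NEAT1-202 (22743 bases), on the plus strand of GRCh38 at chr11:65506019-65506116 and chr11:65445443-65445540, written with T for U. The capitals mark both U-rich stretches and the A-rich tract.
MALAT1-202: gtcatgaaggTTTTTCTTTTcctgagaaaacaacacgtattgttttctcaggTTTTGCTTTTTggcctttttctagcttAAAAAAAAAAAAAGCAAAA
NEAT1-202: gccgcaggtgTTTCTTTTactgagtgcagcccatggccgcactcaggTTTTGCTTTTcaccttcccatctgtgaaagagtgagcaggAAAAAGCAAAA

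The NEAT1 transcript ends with the last capital, while the annotated MALAT1 transcript runs on for some distance, into the part that is cut off as a small RNA. The labels name depletion of ribosomal RNA, and the methods list that and a poly(A) selection, so how such ends were retained is unsettled. Of RNAs that lack a poly(A) tail, 23 were in the table, and together they took 0.0134% to 0.0173% of the counts of a library, with overlapping groups (0.0141% to 0.0173% in LX-2Vector, 0.0134% to 0.0166% in LX-2FAP). The part of RNA selection in the MALAT1 and NEAT1 values was not tested.

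All 10 transcripts passed the filter on low counts. Levels between genes were compared in FPKM, which the authors computed from count, gene length and library size. MALAT1 was the highest, at 630.5 ± 42.7 FPKM in LX-2Vector and 563 ± 4.89 FPKM in LX-2FAP (SD, n = 3), and ranked 19th and 21st among all genes of the table. NEAT1 was next, at 76.1 ± 9.05 and 55.9 ± 8.41 FPKM. In LX-2Vector the order below it was SNHG1 at 41.8 FPKM, GAS5 at 30.7, MIR31HG at 13.7, MEG3 at 8.67, MIR210HG at 2.52, FER1L4 at 1.59, H19 at 0.749 and HAS2-AS1 at 0.115. The range of levels thus ran from one of the most abundant RNAs of the cell to a transcript with 10 to 16 counts per library.

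No 2 neighbours in this order had overlapping FPKM ranges in LX-2Vector. In LX-2FAP the order of the means was the same, but the ranges of NEAT1 and SNHG1 overlapped, as did those of MIR210HG and FER1L4 and those of FER1L4 and H19. In normalized read counts (CPM, counts scaled to a common library size), which are not divided by length, 4 of the 10 kept their place in LX-2Vector and 5 in LX-2FAP. MEG3, with 23.2 kb of counted sequence, moved from the sixth place to the third in LX-2Vector and to the fourth in LX-2FAP, and in both groups FER1L4, with 10.2 kb, passed MIR210HG. The gene length used for MIR31HG was 2.82 kb, against 745 bases of merged exons in GENCODE release 29, and 40.7% of those exon bases lie opposite an interferon pseudogene, IFNWP19. Strand use in counting was not given in the sources used here, so the MIR31HG level is uncertain. Exon overlap with the other strand was at most 5.69% for the other 9 transcripts.

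**Figure D1:**
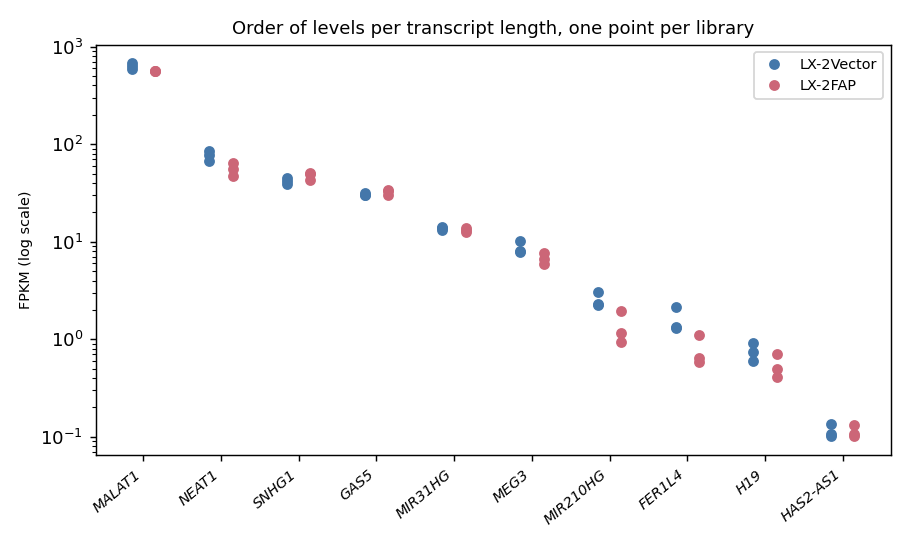
FPKM on a log axis for each of the 10 long noncoding RNAs, ordered by the LX-2Vector mean, with 1 point per library (blue, LX-2Vector; red, LX-2FAP; n = 3 each). MALAT1 stands apart at 558.6 to 674.3 FPKM and HAS2-AS1 lies at 0.102 to 0.134 FPKM.

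The comparison between the groups used CPM and the quasi-likelihood test of edgeR, with p-values adjusted over all 18275 tested genes and a call at an adjusted p under 0.05. Of the 8 transcripts given a test, 3 were called lower in LX-2FAP (MIR210HG, NEAT1 and MEG3), where 2.73% of all tested genes were, and 0 were called higher, where 2.57% of all tested genes were. Calls in either direction made up 5.29% of tested genes, 469 higher and 498 lower, or 239 and 809 with library size alone as the scaling. Counts over all 10 include FER1L4, which this contrast chose, so they are a description and nothing is read from them. Over all 10, edgeR had 4 lower, or 6 lower and 1 higher, SNHG1, at an unadjusted p under 0.05. The DESeq2 Wald test called 0 of the 10 lower, with 5 lower at an unadjusted p under 0.05, and 1 higher, SNHG1. Without LX-2FAP replicate 2 or 3 edgeR called 0 of the 10, and without LX-2FAP replicate 1 it called 6. Values of the groups did not overlap for 5 of the 10, FER1L4, MIR210HG, NEAT1, MEG3 and MALAT1, against 26.4% of all tested genes. The median log2 fold change (log2FC, LX-2FAP over LX-2Vector) was -0.23 over the 10 and -0.01 over all tested genes.

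**Figure D2:**
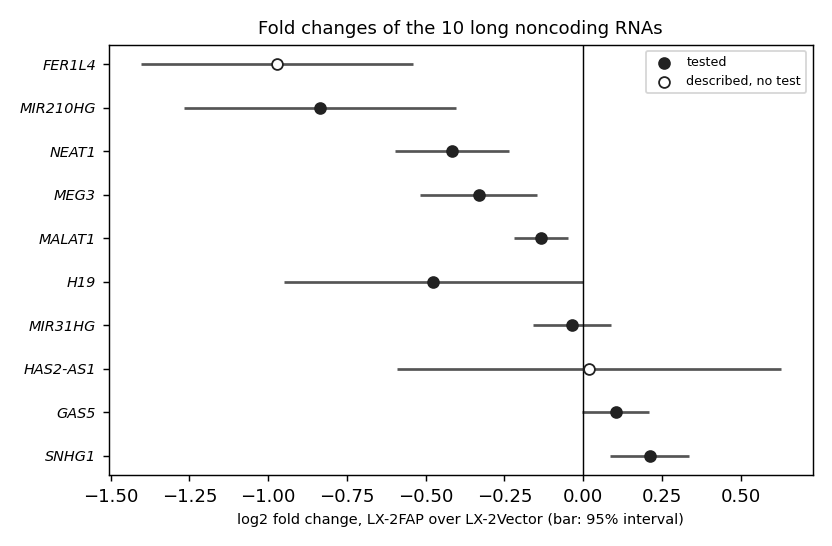
Log2 fold change in LX-2FAP over LX-2Vector with its 95% interval for each of the 10 transcripts (filled points, tested; open points, described without a test). FER1L4 (-0.97) and MIR210HG (-0.83) lie farthest to the left, and SNHG1 (0.21) is the highest.

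FER1L4 (ENSG00000088340) is a former ferlin gene that has lost its reading frame and is annotated as a transcribed unitary pseudogene on GRCh38 chromosome 20 (35558737 to 35607562, minus strand, 39 merged exons). Its level was 13.7, 13.3 and 21.4 CPM in LX-2Vector replicates 1, 2 and 3 and 11.5, 6.0 and 6.68 CPM in LX-2FAP replicates 1, 2 and 3. All 3 LX-2FAP libraries lay below all 3 LX-2Vector libraries, but LX-2FAP replicate 1 was nearer to the controls than to the other LX-2FAP libraries. The means were 16.1 ± 4.60 and 8.05 ± 2.98 CPM (SD, n = 3), a log2FC of -0.97 (SE 0.20, 95% interval -1.40 to -0.54). Of 876 called genes without overlap that averaged 100 counts or more, it had the 4th lowest fold change. That place restates how FER1L4 was chosen, and neither the place nor the interval is a test. DESeq2, and edgeR without LX-2FAP replicate 2 or 3, called 0 of the 10 transcripts lower. The FER1L4 log2FC was -1.34 without LX-2FAP replicate 1 and -0.71 without LX-2Vector replicate 3, and lay between these without any other library. On the scale of log2(FPKM + 1), which compresses low levels, it was -0.54.

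SPAG4, a nuclear envelope protein gene known to be induced by hypoxia, is the divergent neighbour of FER1L4, and the starts of the 2 genes lie 8330 bases apart. SPAG4 was at 14.2, 12.5 and 18.5 CPM in the LX-2Vector libraries, against 9.55, 6.34 and 7.73 CPM in the LX-2FAP libraries, so its groups did not overlap either and its libraries stood in the same order as those of FER1L4. The SPAG4 log2FC was -0.92 (SE 0.15, edgeR adjusted p = 0.00534). FER1L4 over SPAG4 was 0.222, 0.243 and 0.266 in FPKM in LX-2Vector and 0.276, 0.217 and 0.198 in LX-2FAP, with overlapping ranges. The other genes tested around the locus moved less: CPNE1 had a log2FC of -0.11, ERGIC3, which lies 1102 bases away, -0.07, NFS1 -0.04, RBM39 0.07 and CEP250 -0.12, with edgeR adjusted p-values of 0.139, 0.381, 0.71, 0.305 and 0.102. No promoter sequence of FER1L4 was used here.

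**Figure D3:**
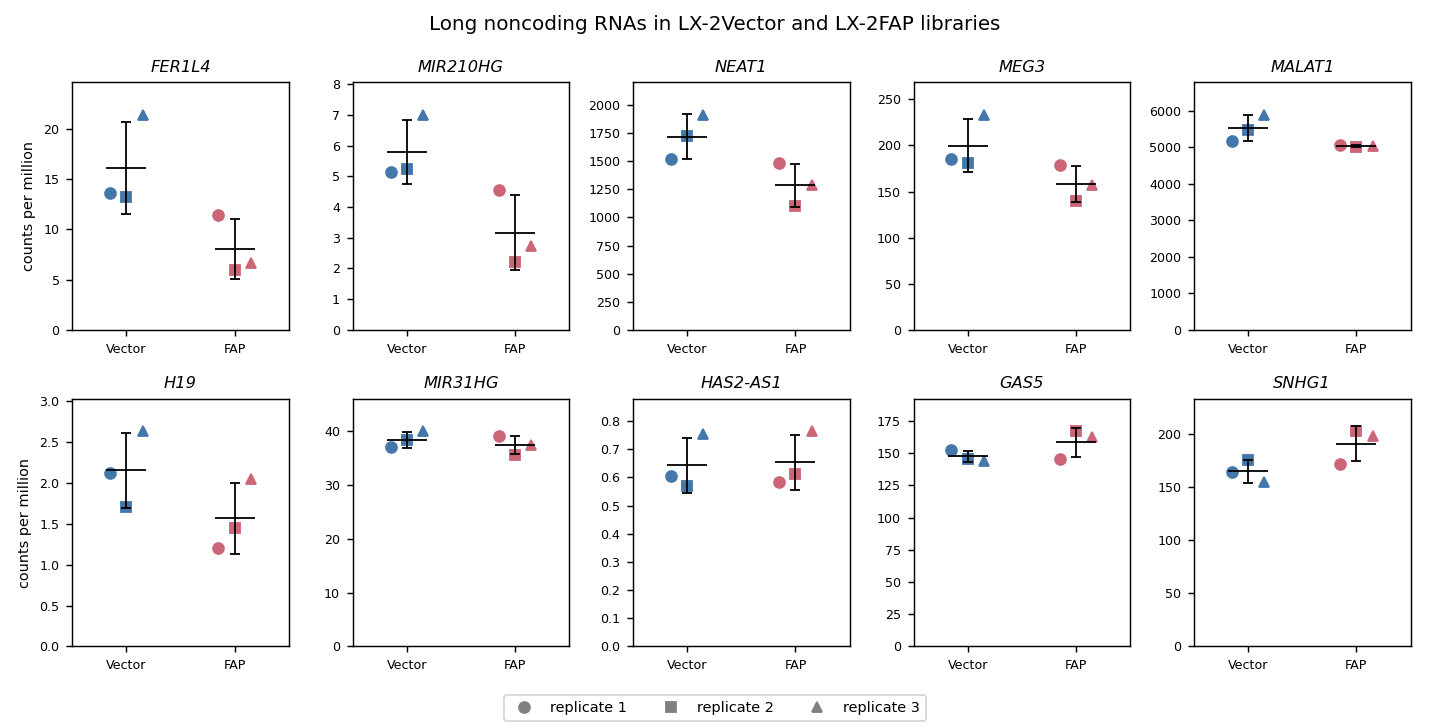
CPM of each transcript in each library, with a panel and a linear axis from 0 for each; point shapes mark the replicate number, the horizontal line is the mean and the bar is 1 SD (n = 3). FER1L4, MIR210HG, NEAT1, MEG3 and MALAT1 show no overlap between the groups, and LX-2FAP replicate 1 is the highest LX-2FAP library in each of these 5 panels.

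MIR210HG (ENSG00000247095, GRCh38 chromosome 11, 565660 to 568457, minus strand) is the host transcript of miR-210. It had 5.15, 5.24 and 7.01 CPM in the LX-2Vector libraries, against 4.55, 2.22 and 2.72 CPM in the LX-2FAP libraries. As with FER1L4, the 3 LX-2FAP libraries were the lowest and LX-2FAP replicate 1 was the nearest to the controls. MIR210HG fell from 5.80 ± 1.05 to 3.16 ± 1.22 CPM (SD, n = 3), a log2FC of -0.83 (SE 0.20, edgeR adjusted p = 0.0298). It rested on 40 to 149 counts per library. The call was lost when LX-2Vector replicate 1 (edgeR adjusted p = 0.059) or 3 (0.0975), or LX-2FAP replicate 2 (0.121) or 3 (0.163), was left out. The MIR210HG adjusted p ran from 2.69e-06 to 0.163 over 13 alternatives, limma-trend among those without a call, while DESeq2 gave none. Its lowest value came only from edgeR without a filter on low counts, and the next was 0.000899, without LX-2FAP replicate 1. PHRF1, RASSF7 and IRF7, its tested neighbours, had log2FC values of -0.03, -0.23 and -0.02 and were not called.

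The promoter of MIR210HG is shown because this gene is a known target of the hypoxia-inducible transcription factors, whose part in these values was not tested. It covers 300 bases around the RefSeq start, GRCh38.p14 chr11:568408-568707 on the minus strand, written 5′ to 3′. The capitals mark the core letters of the hypoxia response element, ACGTG or GCGTG, searched on both strands.
MIR210HG promoter: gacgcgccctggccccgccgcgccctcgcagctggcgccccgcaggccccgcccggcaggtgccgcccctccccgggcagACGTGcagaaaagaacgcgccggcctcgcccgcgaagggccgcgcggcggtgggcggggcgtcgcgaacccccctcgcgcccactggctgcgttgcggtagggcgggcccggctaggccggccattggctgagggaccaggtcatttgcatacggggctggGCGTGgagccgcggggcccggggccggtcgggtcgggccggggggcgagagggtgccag

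There was 1 ACGTG, 170 bases before the start, and 1 GCGTG, 9 bases before it. These letters are common: ACGTG was in 21.4% and GCGTG in 36.5% of 35116 promoters of the same length, 48.4% held at least 1 of them, and 23.1% held at least as many as MIR210HG. Its GC content was 80%. Of the other members with a promoter in the table, none held ACGTG. The letters GCGTG were found 2 times in that of SNHG1, as many matches in all as for MIR210HG. The starts listed for MALAT1 had 2 and 1, those for MEG3 had 1, 1 and 0, and those for GAS5, MIR31HG and H19 had 0. A match describes the letters and is not evidence that a factor was bound.

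A list of 40 hypoxia-responsive protein-coding genes was compared with these transcripts, and 38 of them were tested. SPAG4, the neighbour of FER1L4, is itself among the 38 and among those called. The lower level of such genes was known when the list was written, so its counts are a description. The fold change was below 0 for 38 of 38. Of these, 17 fell and 0 rose, 44.7% against 5.29% of all tested genes, and the median log2FC was -0.28 against -0.01. CA12, a carbonic anhydrase, had a log2FC of -1.04, NDRG1 -0.98, PPFIA4 -0.95 and ALDOC, a glycolytic aldolase, -0.81 (edgeR adjusted p = 0.0177, 0.0249, 0.0115 and 0.01). The mean log2 CPM of the 38, set to 0 at the LX-2Vector mean, was -0.11, -0.09 and 0.20 in LX-2Vector and -0.20, -0.52 and -0.47 in LX-2FAP. The libraries therefore stood much as they did for FER1L4 and MIR210HG. Leaving out LX-2FAP replicate 1, 2 or 3 gave 26, 3 or 1 calls, and leaving out LX-2Vector replicate 3 gave 5, while DESeq2 on all libraries gave 8.

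NEAT1 (ENSG00000245532, GRCh38 chromosome 11, 65422774 to 65445540, plus strand) had 1516, 1727 and 1914 CPM in the LX-2Vector libraries, against 1480.3, 1099 and 1284 CPM in the LX-2FAP libraries. The groups did not overlap, although LX-2FAP replicate 1 came within a few percent of the lowest LX-2Vector library. NEAT1 fell from 1719 ± 199 to 1288 ± 191 CPM (SD, n = 3), a log2FC of -0.42 (SE 0.09, edgeR adjusted p = 0.0152). Leaving out LX-2FAP replicate 2 (log2FC -0.31, edgeR adjusted p = 0.0638) or 3 (-0.41, 0.094) ended the call, as did DESeq2 (adjusted p = 0.0801) and limma-trend. The NEAT1 adjusted p over 14 alternatives ran from 4.77e-27 to 0.132. Its lowest value came only from edgeR without a filter on low counts, and the next was 0.000575, without LX-2FAP replicate 1. At 19760 to 40700 counts per library, depth was not what limited this value. Counts cannot tell the short NEAT1 form from the long one that builds paraspeckles, since the long form contains the short one.

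Of 31 tested paraspeckle proteins, 2 were called, or 6.45%, near the 5.29% of all tested genes, and the median log2FC was 0.03. RBM3, a cold-inducible RNA-binding protein, rose (log2FC 0.18, edgeR adjusted p = 0.0315). NONO and SFPQ, the core pair of the paraspeckle, had log2FC values of 0.00 and -0.03 (edgeR adjusted p = 0.988 and 0.684).

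MALAT1 (ENSG00000251562, GRCh38 chromosome 11, 65497688 to 65506516, plus strand) lies downstream of NEAT1 on the same strand. It had 5187, 5485 and 5897 CPM in the LX-2Vector libraries, against 5065, 4999.6 and 5030.2 CPM in the LX-2FAP libraries. The LX-2FAP libraries were the lowest and nearly equal, and the spread lay within LX-2Vector. The MALAT1 means were 5523 ± 357 and 5031 ± 32.5 CPM (SD, n = 3), with a log2FC of -0.13 (SE 0.04) that was not called (edgeR adjusted p = 0.0642). It was called without LX-2Vector replicate 1 (-0.18, 0.0271), with library size alone (-0.16, 0.0334) and without a filter on low counts (0.00173). The last of these was the lowest MALAT1 adjusted p over 14 alternatives, and the highest was 0.307. Without LX-2Vector replicate 3 the MALAT1 log2FC was -0.08.

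MALAT1 and NEAT1 together took 0.672%, 0.729% and 0.788% of the counts of LX-2Vector replicates 1, 2 and 3 and 0.648%, 0.602% and 0.623% of those of LX-2FAP. NEAT1 per MALAT1 was 11.3%, 12.2% and 12.6% in FPKM in LX-2Vector and 11.3%, 8.52% and 9.90% in LX-2FAP, so LX-2FAP replicate 1 was level with the lowest control. Of the protein-coding genes around both, FRMD8 and SLC25A45 were not called (log2FC values of -0.02 and -0.13), and LTBP3, which stores latent TGF-β in the matrix, fell (-0.33, edgeR adjusted p = 0.0209). Among 22 nuclear speckle proteins, 21 were not called, and the median log2FC was 0.04. The share called was 4.55%, near the same background.

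MEG3 (ENSG00000214548, GRCh38 chromosome 14, 100779410 to 100861031, plus strand) is the maternally expressed transcript of the DLK1-DIO3 imprinted cluster. It had 186, 181 and 233 CPM in the LX-2Vector libraries, against 179, 139.9 and 157 CPM in the LX-2FAP libraries. LX-2FAP replicate 1 lay just under the lowest control. MEG3 fell from 199.9 ± 29.1 to 158.5 ± 19.5 CPM (SD, n = 3), a log2FC of -0.33 (SE 0.09, edgeR adjusted p = 0.0399). The MEG3 call was lost without LX-2Vector replicate 1 (edgeR adjusted p = 0.0621) or 3 (0.139, log2FC -0.20) and without LX-2FAP replicate 2 (0.176) or 3 (0.17), and in DESeq2 and limma-trend. The MEG3 adjusted p over 14 alternatives ran from 1.34e-10 to 0.185. Its lowest value came only from edgeR without a filter on low counts, and the next was 0.00508, without LX-2FAP replicate 1.

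MEG8 and MEG9, which lie downstream of MEG3, had log2FC values of -0.09 and -0.46 (edgeR adjusted p = 0.475 and 0.172), and RTL1, of the paternal copy, had -0.58 on at most 24 counts (0.308). DLK1 was at 0 in every library. Of 16 tested genes of imprinted clusters, PEG10 fell (log2FC -0.34, edgeR adjusted p = 0.00653), 0 rose, and the median was -0.12. That 1 call is 6.25% of the list, near the 5.29% of all tested genes.

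H19 (ENSG00000130600, GRCh38 chromosome 11, 1995176 to 2001470, minus strand), the growth-restraining imprinted RNA that hosts miR-675, was low. It had 2.12, 1.71 and 2.63 CPM in the LX-2Vector libraries, against 1.21, 1.45 and 2.05 CPM in the LX-2FAP libraries, on 26 to 56 counts per library, and the groups overlapped. The H19 log2FC of -0.48 (SE 0.22) had an unadjusted edgeR p of 0.04998 and was not called (edgeR adjusted p = 0.225). This log2FC ran from -0.72 to -0.29 as single libraries were left out. IGF2, its reciprocally imprinted neighbour, and INS were at 0 in every library.

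GAS5 (ENSG00000234741, GRCh38 chromosome 1, 173863900 to 173868882, minus strand) and SNHG1 (ENSG00000255717, chromosome 11, 62851988 to 62855914, minus strand) stood on the other side of 0. Both belong to the class of transcripts whose 5′ end ties them to growth signals and whose spliced form is removed by nonsense-mediated decay. SNHG1 had 164, 176 and 155 CPM in the LX-2Vector libraries, against 172, 203 and 198 CPM in the LX-2FAP libraries. LX-2FAP replicate 1 fell inside the control range and the other LX-2FAP libraries were above it. The SNHG1 log2FC was 0.21 (SE 0.06, 95% interval 0.08 to 0.34), not called at an edgeR adjusted p of 0.0513. It was called by the DESeq2 Wald test (adjusted p = 0.0181), with DESeq2 size factors (0.0429), without LX-2FAP replicate 1 (0.28, adjusted p = 0.00336) and without LX-2Vector replicate 2 (0.26, adjusted p = 0.0413). The SNHG1 adjusted p ran from 0.00046, in edgeR without a filter on low counts, to 0.248 over 14 alternatives. Exons of SNHG1 share 15.3% of their bases with snoRNA genes on the same strand. Those snoRNA genes had 0 counts in every library. Whether reads on the shared bases were counted for SNHG1 or dropped was not given in the sources used here.

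GAS5 had 152, 146 and 144 CPM in the LX-2Vector libraries, against 146, 167 and 163 CPM in the LX-2FAP libraries, with LX-2FAP replicate 1 again within the control range. The GAS5 log2FC was 0.10 (SE 0.05, 95% interval -0.00 to 0.21, edgeR adjusted p = 0.248). Without LX-2FAP replicate 1 it was 0.16 and called (edgeR adjusted p = 0.035). SLC3A2, the amino acid transporter subunit that starts 188 bases from SNHG1 on the other strand, had a log2FC of 0.23 (SE 0.10, edgeR adjusted p = 0.199), and ZBTB37, which starts 800 bases from GAS5, had -0.09 (0.359).

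Of 23 other snoRNA host genes tested, edgeR called 0 and DESeq2 called 0, where edgeR called 5.29% of all tested genes, so the count says little about a list of this size. At an unadjusted p under 0.05 edgeR had 1 and DESeq2 had 0. The median log2FC was 0.07 against -0.01 for all tested genes, and 9 of the 23 were below 0. SNHG14, SNHG29, SNHG16 and SNHG17, the most counted, had log2FC values of 0.06, 0.07, 0.08 and 0.08.

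HAS2-AS1 (ENSG00000248690) is transcribed across the start of the hyaluronan synthase gene HAS2 from the other strand, on GRCh38 chromosome 8 (121639293 to 121993876). It had 16, 10 and 16 counts in LX-2Vector and 14, 11 and 16 counts in LX-2FAP, or 0.606, 0.570 and 0.752 CPM against 0.584, 0.612 and 0.764 CPM. The groups overlapped throughout. The HAS2-AS1 log2FC was 0.02 with a 95% interval of -0.59 to 0.63, or 0.664-fold to 1.54-fold, so smaller changes were not detectable at this depth, and its sign differed between alternatives, with -0.01 under library size alone. HAS2 had 187 to 262 counts in LX-2Vector and 373 to 491 in LX-2FAP. HAS2 over HAS2-AS1 was 19, 24.9 and 21.8 in FPKM in LX-2Vector and 43.2, 45.2 and 40.9 in LX-2FAP, a description that follows from the known rise of HAS2 and rests on the low HAS2-AS1 counts. Of the HAS2-AS1 exon bases, 5.69% lie opposite HAS2 exons.

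MIR31HG (ENSG00000171889, GRCh38 chromosome 9, 21455642 to 21559669, minus strand), the host transcript of miR-31, had 36.9, 38.2 and 39.9 CPM in the LX-2Vector libraries, against 39.1, 35.6 and 37.4 CPM in the LX-2FAP libraries, and the groups overlapped. The MIR31HG log2FC was -0.04 with a 95% interval of -0.16 to 0.09 (edgeR adjusted p = 0.785), and it was 0.003 without LX-2Vector replicate 3. IFNE, within its span on the same strand, CDKN2A, CDKN2B and MTAP were not called (log2FC values of -0.11, -0.07, -0.16 and 0.15).

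Of 17 tested host genes of other microRNAs, MIR100HG (log2FC 0.31, SE 0.05, edgeR adjusted p = 0.00765) and MIR222HG (0.21, SE 0.06, edgeR adjusted p = 0.0492) rose and 0 fell, with a median of 0.05. The share called higher was 11.8%, against 2.57% of all tested genes. It rests on 2 genes of a list chosen with earlier results known, so it says little about microRNA hosts as a class. MIR100HG had 79.5 ± 5.42 CPM under the vector, against 98.3 ± 3.29 CPM in LX-2FAP (SD, n = 3). MIR4435-2HG, MIR22HG, DLEU2 and MIR23AHG were the most counted of those not called, with log2FC values of 0.05, 0.04, 0.04 and -0.19.

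Among 34 other named long noncoding RNAs, 2 fell and 0 rose (5.88%, near the 5.29% of all tested genes), with a median log2FC of -0.09. LUCAT1, a stress-responsive RNA first described in smokers' airway cells, had 33.1 ± 11.3 CPM under the vector, against 18 ± 4.26 CPM in LX-2FAP (SD, n = 3; log2FC -0.86, edgeR adjusted p = 0.0196). LINC00342 had a log2FC of -0.28 (edgeR adjusted p = 0.0285). NORAD, TUG1 and OIP5-AS1, abundant RNAs of most cells, had log2FC values of 0.09, 0.00 and -0.07 and were not called.

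The GENCODE class of long noncoding genes, which holds 9 of the 10 transcripts and not FER1L4, had 15842 genes in the table and 2840 tested. Of these, 26 were called lower and 4 higher, 1.06% in all, with a median log2FC of -0.08 and 62.1% below 0, against 53% of all tested genes. Part of the class is thinly counted. At 100 counts or more on average, 11 of 431 were lower and 3 higher, or 3.25%, against 7.68% of all genes at that level, and the median was -0.03 against 0.01. The class took 1.94% to 2.13% of the counts of an LX-2Vector library and 1.85% to 1.90% of those of an LX-2FAP library. MALAT1 and NEAT1 are included there, with 0.672% to 0.788% and 0.602% to 0.648% of the library counts, so much of this difference lies in these 2 genes. Without LX-2FAP replicate 3, edgeR called 0 of the class, where 195 had an unadjusted p under 0.05, and without LX-2FAP replicate 1 it called 68, while DESeq2 on all libraries called 12.

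How the transcripts varied together was described with deviations from the group means over the 6 libraries, which removes the difference between the groups and leaves few independent points. FER1L4 varied most closely with MIR210HG (Pearson r = 0.97) and MEG3 (0.95), and NEAT1 with MIR31HG (0.996), whereas SNHG1 went against FER1L4 (-0.95) and GAS5 against MIR210HG (-0.95). HAS2-AS1 and H19 varied together (0.96), both on few counts. With the mean of the 38 hypoxia-responsive genes, r was 0.99 for FER1L4, 0.97 for MEG3, 0.94 for MIR210HG, 0.92 for MIR31HG, whose groups overlapped, 0.89 for NEAT1 and 0.71 for MALAT1, but -0.91 for SNHG1 and -0.85 for GAS5. These coefficients share 6 libraries and have no p. High values were common: 4.60% of the 11555 other genes that averaged 100 counts or more reached 0.9 with FER1L4, and 4.86% with NEAT1.

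**Figure D4:**
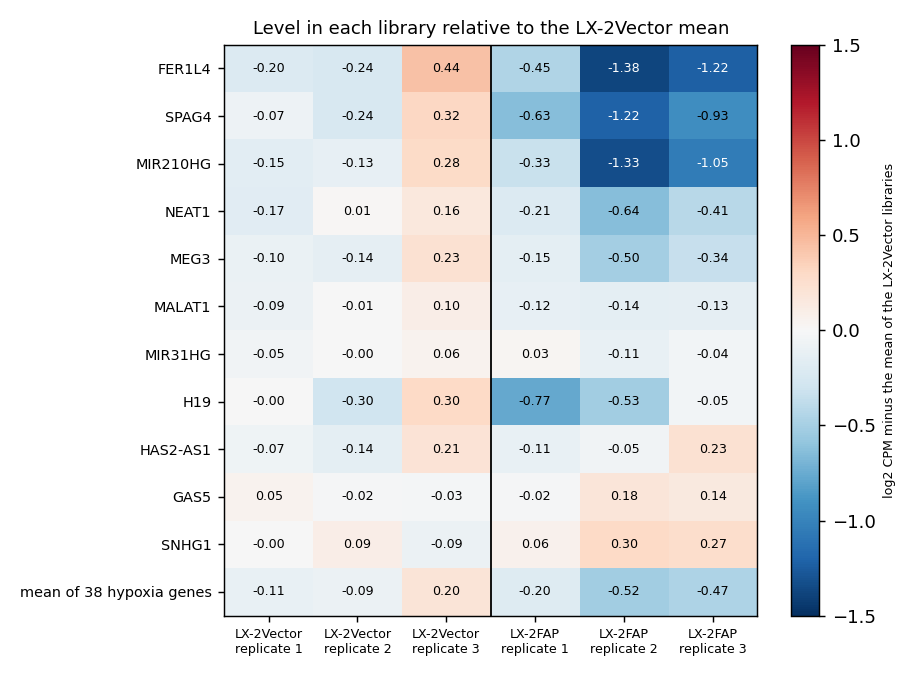
Log2 CPM of each transcript, of SPAG4 and of the mean of 38 hypoxia-responsive genes in each library, minus the mean of the LX-2Vector libraries (blue, lower; red, higher; the value is in each cell). SPAG4 is also among the 38 genes of the mean. LX-2Vector replicate 3 is the highest and LX-2FAP replicates 2 and 3 are the lowest for FER1L4, SPAG4, MIR210HG, NEAT1 and MEG3, while GAS5 and SNHG1 are highest in LX-2FAP replicates 2 and 3.

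By the same measure, the 3 genes closest to FER1L4 were COQ7, SH3BP2 and RFTN1 (r = 0.999, 0.999 and 0.997), and those closest to MIR210HG were TMEM132A, NPTXR and APOL6. GOLGB1, FAM111A and KTN1 were closest to NEAT1, CEP78, SPICE1 and KCTD7 to MALAT1, and DMXL2, TSHZ3 and RASSF2 to MEG3. Closest to GAS5 were CSTF2, FAM168B and ANKRD18B, and closest to SNHG1 were MFSD1, FUBP3 and UCK2. GNAI3, SLC44A1 and PDP1 came nearest to MIR31HG, MACROH2A2, CDHR3 and GNAI1 to H19, and TMEM258, UVSSA and ZNF28 to HAS2-AS1. Of these, SH3BP2 (log2FC -0.48, edgeR adjusted p = 0.00562), RFTN1 (-0.23, 0.0276), TMEM132A (-0.24, 0.012) and MFSD1 (0.25, 0.0374) were themselves called between the groups.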

How the data were processed

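Sample titles gave the group and the replicate number. The 10 transcripts and all gene lists were chosen with earlier results of these data known. The authors aligned reads with HISAT2 2.0.5, counted them per gene with featureCounts 1.5.0-p3, and deposited whole-number counts and FPKM values computed from gene length. The submitters' processing notes name hg18 without a role. Coordinates are those of GENCODE release 29 (GRCh38), which held 58337 of 60605 Ensembl identifiers. The count of value columns that belong to no sample was 0. The gene annotation columns (GO and KEGG) were not used here.

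Counts were tested in R 4.3.3 with edgeR 4.0.16 (glmQLFit, TMM, default filter with a minimum count of 10 and a minimum total of 15, no covariate, 2-sided), adjusted by Benjamini-Hochberg over all tested genes. Standard errors and 95% intervals came from the same fit. The code was tested on simulated data. CPM used TMM-scaled library sizes, and log2 CPM a prior count of 2. Depth limits low transcripts, and intervals cover only the spread between these libraries. Alternatives were DESeq2 1.42.0, its size factors, library size alone, no filter, 10 counts in every library, limma-trend (limma 3.58.1) on log2 FPKM with a pseudocount of 1 or 0.1, the replicate block and each library left out. Genes named are the 10, list members that were called or most counted, locus neighbours, and for each of the 10 the 3 genes with the closest deviations. MEG8, MEG9, LRAT, DES and other markers near 0 were named outside this rule, after their values were seen. Some list members and neighbours are not reported here. MicroRNA sequences and the promoter came from RefSeq tables on GRCh38.p14, which held 3 microRNAs shown and promoters for 7 of the 10 genes.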

Additional observations from a re-analysis of the deposited data

How the results depend on the processing

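The fold changes of the 8 tested transcripts kept their direction under all alternatives run, except MIR31HG, which ran from -0.068 to 0.0026 with one library left out and reversed (0.0026) without LX-2Vector replicate 3. Of the 10, HAS2-AS1 had the fewest counts, with 10 to 16 per library, and its interval is wide. Leaving out one library at a time gave 26 to 1949 genes called, 0 to 6 of the 10 transcripts (FER1L4 counted), 0 to 68 long noncoding genes and 1 to 26 hypoxia-responsive genes. The lowest counts came when LX-2FAP replicate 3 was left out and the highest when LX-2FAP replicate 1 was. Without LX-2FAP replicate 2 or 3 edgeR called 0 of the 10 transcripts, where 6 and 7 had an unadjusted p under 0.05, and without LX-2Vector replicate 3 it called 2.

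Limma-trend called 2 genes, 0 of the 10 transcripts (6 at an unadjusted p under 0.05), 1 long noncoding gene and 0 hypoxia-responsive genes (28 at an unadjusted p under 0.05) with each pseudocount. DESeq2 called 1 of the 10 transcripts (SNHG1), 12 long noncoding genes and 8 hypoxia-responsive genes, and gave no adjusted p for MIR210HG and H19. Without a filter on low counts 1606 genes, 69 long noncoding genes and 27 hypoxia-responsive genes were called. The cause of these changes was not tested. Library size alone called 239 genes higher and 809 lower, against 469 and 498, and moved the median of all tested genes to -0.04. The count of snoRNA host genes called was 0 under all 14 alternatives. In CPM in place of FPKM 4 of the 10 transcripts kept their rank in LX-2Vector and 5 in LX-2FAP, and with medians all 10 did in both.

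With the replicate number as a block, 975 genes, 5 of the 10 transcripts, 26 long noncoding genes and 16 hypoxia-responsive genes were called, and SNHG1 became called (adjusted p = 0.0386). Same-numbered libraries did not deviate together (r = -0.04, 0.04 and -0.01), so the numbers were not taken to pair the libraries.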

Other observations

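GAS5 and SNHG1 are known targets of nonsense-mediated decay, and factors of that pathway were listed beside them. Of 18 decay factors, edgeR called 0, where it called 5.29% of all tested genes, 1 had an unadjusted p under 0.05, and the median log2 fold change was 0.03. SMG1, the kinase that starts the decay, and ETF1, a translation release factor, had log2 fold changes of 0.01 and 0.15 (edgeR adjusted p = 0.945 and 0.0713). DESeq2 called 1 of the 18, ETF1.

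Among RNAs without a poly(A) tail, 9 were tested. H2AC6, a histone gene, rose (log2 fold change 0.39, edgeR adjusted p = 0.0315) and 0 fell. RN7SL1, the RNA of the signal recognition particle, was the most counted, at a log2 fold change of -0.20 with an edgeR adjusted p of 0.206. RN7SK, RMRP, TERC and RPPH1 were listed at 0 in every library, RMRP under more than 1 identifier. Whether these values came from the RNA selection or from the counting was not tested.

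The summed level of 10 hepatocyte markers was 14.9 to 17.2 CPM in LX-2Vector and 12.2 to 13.2 CPM in LX-2FAP, with 0 of 3 tested called by either tool and 2 at an unadjusted edgeR p under 0.05. Endothelial markers summed to 11.9 to 13.4 and 8.88 to 11.5 CPM, with VWF called lower (log2 fold change -1.06, edgeR adjusted p = 0.0268) and 0 of 5 called by DESeq2. Leukocyte and epithelial markers summed to 14.2 to 19.3 and 69.8 to 79.2 CPM over all libraries, with 0 called by either tool of 4 tested in each (1 and 0 at an unadjusted edgeR p under 0.05). The part of these cell type markers in the values of the 10 transcripts was not tested. Of 14 tested stellate cell markers, COL3A1, COL1A1 and PDGFRB fell and VIM rose in edgeR, 28.6% called against 5.29% of all tested genes, while DESeq2 called 2 lower (COL3A1 and PDGFRB) and 2 higher (VIM and RELN).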
